A study of Mus musculus with 6 samples.

Results

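The genes described here encode the initiation and elongation factors of cytosolic translation, the proteins that load the ribosome onto messenger RNA, find the start codon and move the ribosome along the coding sequence. They were taken as the protein-coding genes of the deposited table whose RefSeq symbol starts with Eif or Eef, and numbered 61 of the 8520 genes listed: 5 in the Eif1 group, 14 in Eif2, 13 in Eif3, 14 in Eif4, 5 in Eif5 and Eif6 together, and 10 in Eef. RefSeq names 72 such genes in the mouse, and the other 11, which include Eef1a2, Eif2s3y and Eif4ebp1, were not analysed here.

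RNA was sequenced from natural killer (NK) cells, lymphocytes that kill infected and transformed cells, sorted from the spleens of 20 C57BL/6 mice (C57BL/6Ncr in the protocol) aged 6 to 8 weeks. No mouse or cell received a treatment. Both groups were CD3-negative and NK1.1-positive. Ly49G+ cells were stained by the antibody 4D11 against Ly49G and not by 5E6, which binds both Ly49C and Ly49I, and Ly49I+ cells the reverse, with 3 libraries each that the labels call biological replicates without saying which mice fed each one. The p-values therefore measure the spread between these libraries. The series asks how transcription differs between NK cells that carry the one or the other of these receptors for MHC class I.

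Translation starts when eIF2, loaded with GTP and the initiator transfer RNA, joins the small ribosomal subunit together with eIF1, eIF1A, eIF3 and eIF5. The eIF4 factors bring in the messenger: eIF4E holds the cap, eIF4G is the scaffold and eIF4A the helicase. After eIF5B joins the large subunit, eEF1A delivers aminoacyl transfer RNAs, the other eEF1 subunits recharge it with GTP, and eEF2 translocates the ribosome. In lymphocytes this machinery is known to be held in check at rest and raised on activation, through mTORC1 acting on the eIF4E-binding proteins and through kinases that phosphorylate eIF2.

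Many messengers of the translation machinery are known to start with a C followed by a run of pyrimidines, the 5′ TOP motif through which mTORC1 controls their translation, so the starts of 7 members are shown, each as 10 bases before and 20 bases from the RefSeq start. They are the elongation factor genes Eef1b2, Eef1a1 and Eef2 and the initiation factor genes Eif3f, Eif2s3x, Eif2s2 and Eif3m. Of these only Eif3f and Eif2s3x have the motif at their annotated start, and Eif2s2 and Eif3m are described below. Capitals mark the first 5 bases from the start (RefSeq, GRCm38.p6, 5′ to 3′ on the gene's strand).
Eef1b2, plus strand of chr1:63176821-63176850: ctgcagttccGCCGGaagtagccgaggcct
Eef1a1, minus strand of chr9:78481705-78481734: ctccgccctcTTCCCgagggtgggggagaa
Eef2, plus strand of chr10:81176621-81176650: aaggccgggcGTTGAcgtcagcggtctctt
Eif3f, plus strand of chr7:108934405-108934434: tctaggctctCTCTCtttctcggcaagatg
Eif2s3x, minus strand of chrX:94212632-94212661: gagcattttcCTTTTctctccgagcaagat
Eif2s2, minus strand of chr2:154892887-154892916: aaggttggctTTACTgtacgcctgcgcttt
Eif3m, minus strand of chr2:105017008-105017037: cggtcggcgtGTTTCtggatcggagcgtct

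A start of C followed by 4 bases that were each C or T was found in 2 of the members' 65 listed promoters (3.08%), those of Eif3f and Eif2s3x. It was found in 2.31% of the 8741 promoters listed for genes of the table and in 13 of 64 promoters of cytosolic ribosomal protein genes (20.3%). The count describes annotated starts, which can lie some bases away from those a cell uses. It therefore cannot tell which messengers carry the motif in these cells, nor how often, in either set of genes. The letters CACGTG, which read the same on both strands, stood in 14 of the 65 promoters (21.5%, against 10.2% of the table's), among them those of Eef2, Eif3a, Eif4a1, Eif4e and Eif4g1. The letters CCGGAAG, on either strand, stood in 20 (30.8%, against 20.8%), among them that of Eef1b2. The window ran from 250 bases before to 50 after the start, and 11 members, Eif3e among them, had no entry.

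Gene by gene, translation factor RNA differed little between the 2 populations, with a lean to Ly49G+ that is described below. The 2 members past the test were higher in Ly49G+ cells. Neither passed once a Ly49G+ library, whichever it was, was left out. Eef1b2, which encodes the nucleotide exchange subunit eEF1B alpha, was 1.29-fold higher in Ly49G+, and Eif3e, a subunit of the scaffold complex eIF3, was 1.31-fold higher. These were the members past the test, 2 of 61 (3.28%), against 3.59% of all 8520 genes in either direction with 1.82% higher in Ly49G+ and 1.77% higher in Ly49I+, so the share called was near that of the table. The largest difference of any member was 1.34-fold, in Eef1e1, which did not pass. For 60 of the 61 members the 95% interval of the difference, taken gene by gene, lay inside 1.5-fold in either direction, the exception being Eef1e1, and for all 61 it lay inside 2-fold.

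The test was limma's on log2 CPM (reads of a gene per 1000000 reads of its library), Ly49G+ minus Ly49I+, with Benjamini-Hochberg adjustment over all 8520 genes at 0.05, and errors of log2 differences below are standard errors. Library totals were 33599679 to 40892154 reads and the lowest count of any member was 291 reads, of Eef1akmt2, so the spread between libraries limits the precision. Bulk RNA cannot tell fewer cells of a type from less RNA per cell.

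The labelled cell type was checked against markers, whose part in the differences below was not tested. All 9 NK markers were measured, with a summed level of 12123 to 12521 CPM in Ly49G+ and 12706 to 13393 in Ly49I+ libraries. Of these 1 was called higher in Ly49G+, Eomes (log2 difference 0.39, limma adjusted p = 0.00893), and 2 in Ly49I+, Tbx21 (-0.42, 0.0441) and Prf1 (-0.49, 0.0253). With the block Nkg7 also passed toward Ly49I+ (0.171, and 0.0134 with the block).

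Of 9 T cell markers 5 were in the table and all 5 were called higher in Ly49G+, in cells gated to lack CD3. Their summed level was 194.1 to 256.2 CPM against 103.7 to 115.1, most of it from Cd28 at 134.5 ± 8.78 against 82.56 ± 4.03 CPM (SD, n = 3 each). The CD3 and receptor genes differed by more. Cd3e stood at 13.08 ± 4.84 against 0.9445 ± 0.327 CPM (log2 difference 3.78), Trac at 28.21 ± 7.08 against 7.558 ± 2.37 and Cd3g at 34.71 ± 8.03 against 10.53 ± 0.977.

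Of 10 monocyte markers 8 were called higher in Ly49I+. The summed level of all 10 was 1059 to 1175 CPM in Ly49G+ and 1153 to 2055 in Ly49I+, highest in Ly49I+ replicate 2. In Ly49G+ nearly all of that sum came from Itgax, which was not called, so the sum hides the size of the differences in the 8. Ace stood at 1.131 to 4.851 against 44.78 to 201.3 CPM, and Adgre4, Treml4 and Cd300ld had log2 differences of -5.22, -4.77 and -4.73. Itgax, which NK cells also express, was the most abundant at 1037 to 1120 against 827 to 945.5 CPM. With the block Cst3 also passed toward Ly49I+ (limma adjusted p = 0.154, and 0.0477 with the block) and Itgax toward Ly49G+ (0.0985, and 0.0185 with the block). Cd74 was the only B cell marker in the table, at 13.15 to 42.19 against 21.54 to 79.58 CPM, and none of 4 erythroid markers was. No marker in the table was at 0.

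The direction of the differences leaned to Ly49G+. Of the 61 members 37 (60.7%) had a positive difference, against 46.5% of all genes, and the median difference was 0.05 on the log2 scale against -0.02. The groups did not overlap in 18 members (29.5%, against 25.8% of all genes). In 15 of them every Ly49G+ library was higher (24.6%, against 12.5%), and in 3, Eef2k, Eif1ad and Eif4g3, every Ly49I+ library was (4.92%, against 13.4%). Together the members took 1.49%, 1.6% and 1.56% of the reads of Ly49G+ replicates 1, 2 and 3, and 1.34%, 1.42% and 1.42% of the Ly49I+ libraries. Eef1a1 alone took 0.425%, 0.503% and 0.472% against 0.363%, 0.418% and 0.384%.

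**Figure D1:**
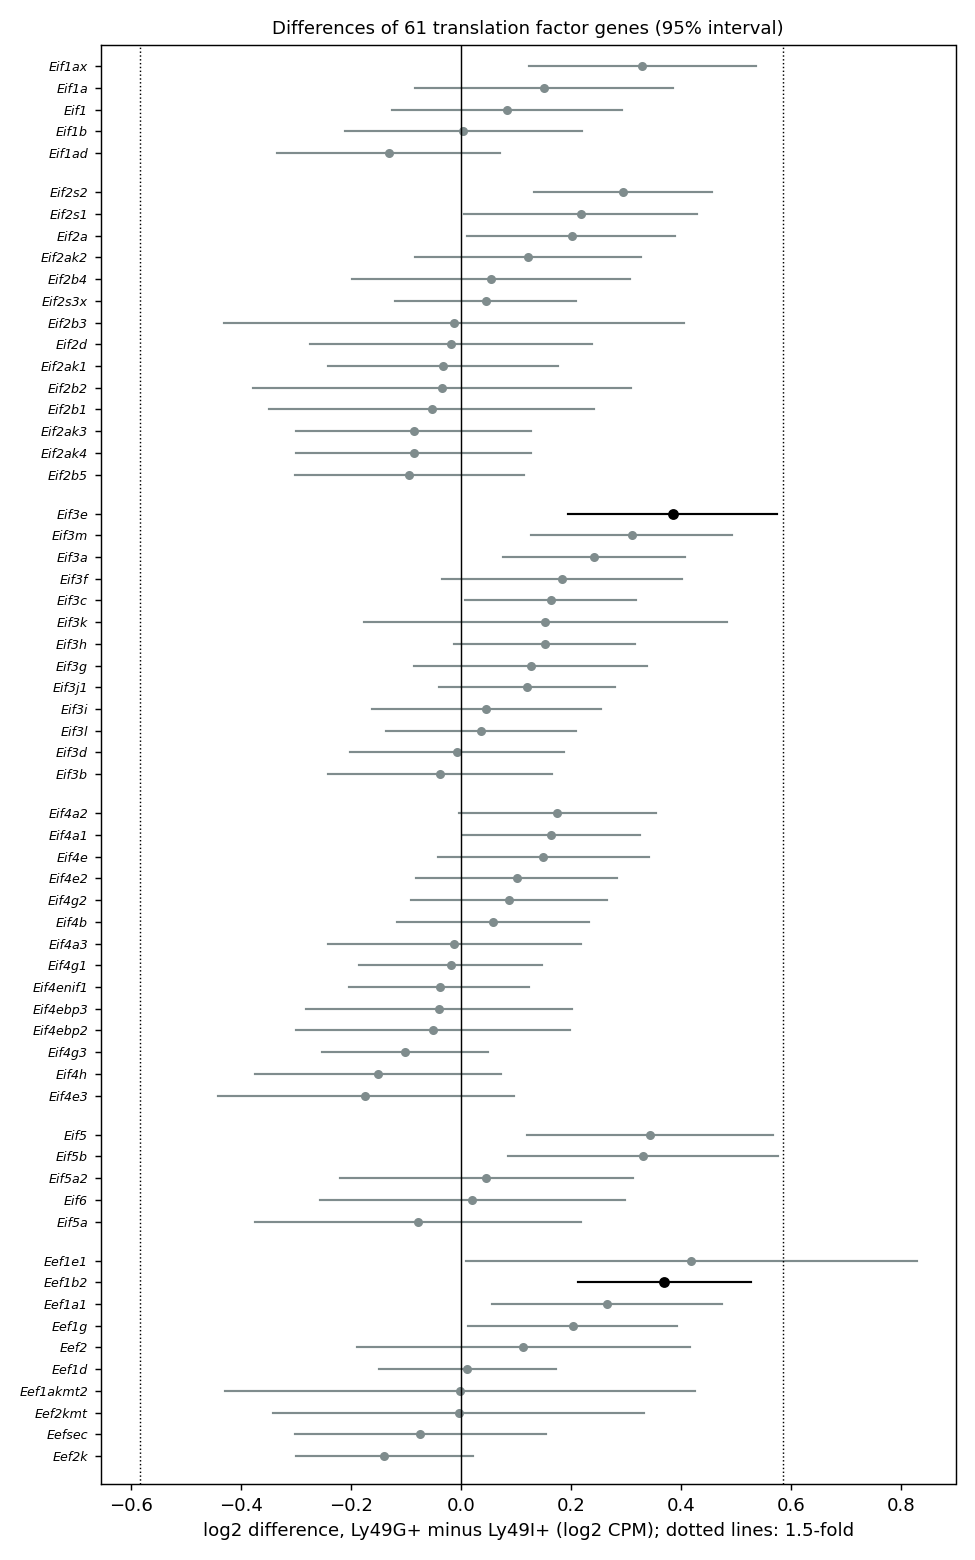
The log2 difference of Ly49G+ minus Ly49I+ is plotted for each of the 61 members with its 95% interval, ordered by group, with black for the members past the test. Eef1b2 and Eif3e are black, and only the interval of Eef1e1 crosses the dotted lines at 1.5-fold.

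Whether same-numbered libraries belong together is not settled by the check given under the processing. With the replicate number as a block, which assumes that they do, 9 members were called, all higher in Ly49G+ (14.8%, against 11.7% of all genes in either direction, 5.69% higher in Ly49G+ and 5.96% higher in Ly49I+). Besides Eef1b2 and Eif3e these were Eef1a1, Eif1ax, Eif2s2, Eif3a, Eif3m, Eif5 and Eif5b. Without Ly49G+ replicate 1, 2 or 3 no member was called, while 1.82%, 1.1% and 1.97% of all genes were. At an unadjusted p under 0.05 with all libraries 15 members passed (24.6%, against 19.8%). Without Ly49I+ replicate 1 there were 5 called members (8.2%, against 7.56% of all genes), Eef1b2, Eif3a, Eif3e, Eif5 and Eif5b. Without Ly49I+ replicate 2 Eif3e alone was called (1.64%, against 2.43%), and without Ly49I+ replicate 3 Eef1b2 alone (1.64%, against 3.44%). Without the intensity trend of the variance Eef1b2 alone was called (1.64%, against 2.77%).

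The most abundant translation factor RNA was that of eEF1A. Eef1a1 encodes eEF1A, the GTPase that carries aminoacyl transfer RNA, at 4253, 5034 and 4724 CPM in the Ly49G+ libraries (replicates 1, 2 and 3, an order kept below) and 3635, 4179 and 3836 CPM in the Ly49I+ libraries. Every Ly49G+ library was above every Ly49I+ library, with replicate 2 highest in both. The log2 difference was 0.27 ± 0.09 (limma adjusted p = 0.161, and 0.032 with the replicate block). With quantile normalization it was 0.155 (limma adjusted p = 0.447). Per kilobase of transcript Eef1a1 was the most abundant member at a mean of 2384 CPM per kb, ahead of Eef2 at 523.6. Of the 100-base windows of its transcript 26.7% also occur in other annotated genes such as Gm13456, so its level is uncertain by the way shared reads were counted, which no source used here states.

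Eef1b2 (gene 55949, GRCm38.p6 chromosome 1, 63176831 to 63180486) stood at 145.6, 159.4 and 150 CPM in Ly49G+ and at 118.8, 118.3 and 114.7 CPM in Ly49I+ libraries. The Ly49I+ libraries lay close together and below all Ly49G+ libraries. The difference was 0.37 ± 0.07 (limma adjusted p = 0.0168), and 0.00371 with the block. Without Ly49G+ replicates 1, 2 and 3 and without Ly49I+ replicate 2 its adjusted p was 0.0546, 0.126, 0.0693 and 0.0572. Windows shared with another transcript made up 1.25% of its transcript, and 6.95% of its exon bases lie in the small gene Gm27390 on the same strand.

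Its partners among the eEF1 genes did not pass the test. Eef1g, the scaffold subunit eEF1B gamma, stood at 204.5, 241.6 and 199.4 CPM against 182.5, 182.2 and 194.2 (0.20 ± 0.09, limma adjusted p = 0.23), without overlap but with 49.4% of its windows shared. Eef1d, a further exchange subunit, stood at 104.6, 110.7 and 105.8 against 102.2, 105.4 and 111.1 CPM (0.01 ± 0.07), with overlapping groups and a 95% interval of -0.15 to 0.17. Eef1e1, which belongs to the multi-synthetase complex, was low at 15.18, 18.38 and 11.87 against 11.03, 12.94 and 9.714 CPM. Its groups overlapped, and the difference was 0.42 ± 0.19 (limma adjusted p = 0.246).

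Eef2, the translocase, did not separate the groups. It stood at 1773, 1547 and 1686 CPM in Ly49G+ and 1350, 1365 and 1983 CPM in Ly49I+ libraries, so that Ly49I+ replicate 3 was the highest of all and the others of its group the lowest. The difference was 0.11 ± 0.14 (95% interval -0.19 to 0.42). Eef2k, the kinase that inactivates eEF2, leaned the other way at 109.8, 109.5 and 114.3 against 117.2, 121.3 and 129.3 CPM. Every Ly49I+ library was higher, and the difference was -0.14 ± 0.07 (limma adjusted p = 0.307). Eefsec, which delivers selenocysteine transfer RNA, and the methyltransferase genes Eef2kmt and Eef1akmt2 differed by -0.07, -0.004 and -0.002, with overlapping groups.

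**Figure D2:**
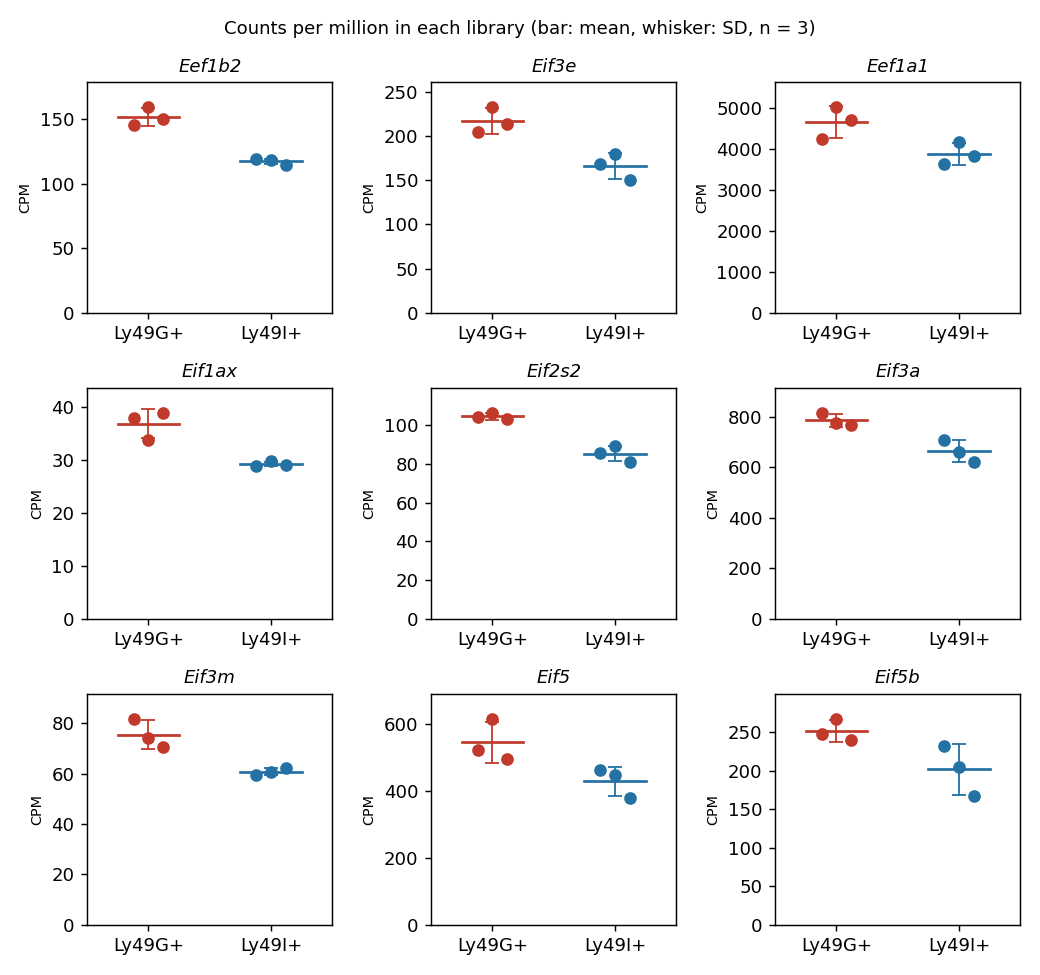
CPM in each library is shown for the 9 members called with the replicate block, with the mean as a bar and the SD as a whisker (n = 3). All Ly49G+ points lie above all Ly49I+ points in each panel, most narrowly in Eef1a1 and Eif5b, where 4253 and 4179 CPM and 239.4 and 232.2 CPM are the nearest values.

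The eIF3 complex, which bridges the ribosome and the messenger, held the other called gene. Eif3e (gene 16341, GRCm38.p6 chromosome 15, 43250040 to 43282736) stood at 205, 233 and 213.6 CPM in Ly49G+ and at 169, 179.7 and 150.9 CPM in Ly49I+ libraries. The groups did not overlap, with replicate 2 highest in both. The difference was 0.39 ± 0.09 (limma adjusted p = 0.0352), and 0.00297 with the block. Its adjusted p was 0.0868 without the intensity trend, 0.0784, 0.205 and 0.108 without Ly49G+ replicates 1, 2 and 3, and 0.0582 without Ly49I+ replicate 3.

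Eif3m and Eif3a came next. Eif3m, a subunit of the same shell, stood at 81.7, 74.24 and 70.49 CPM against 59.48, 60.43 and 62.33 (0.31 ± 0.08, limma adjusted p = 0.0701, and 0.0262 with the block). Eif3a, the large subunit around which the complex assembles, stood at 814.1, 775.3 and 764.5 against 709, 661.4 and 621.9 CPM (0.24 ± 0.07, limma adjusted p = 0.107, and 0.0254 with the block). Neither overlapped between the groups, and replicate 1 was the highest of each group for Eif3a.

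Of the 13 eIF3 genes 11 had a positive difference (46.5% of all genes did), 6 had separated groups with Ly49G+ higher (12.5% of all genes) and 1 passed the test (3.59% of all genes). The median difference was 0.15, against -0.02 over all genes. The 8 subunits that carry a PCI or MPN domain and form the core of the complex (a, c, e, f, h, k, l and m) had differences of 0.04 to 0.39, with a median of 0.17. The other 5 (b, d, g, i and j1) had differences of -0.04 to 0.13, with a median of 0.05. This division by structure was applied with the values known, and the difference between the sets was not tested. Eif3c stood at 351.4, 394.9 and 371.2 against 333.1, 328.3 and 335.8 CPM and Eif3h at 197.7, 217.5 and 223.8 against 185, 192.1 and 197.2 CPM, both without overlap (0.16 ± 0.07 and 0.15 ± 0.07). Eif3b stood at 106.6, 129.5 and 121.4 against 114.7, 119.4 and 132.6 CPM (-0.04 ± 0.09), with overlapping groups.

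Among the eIF3 genes Eif3k varied most within a group, at 97.01, 151.3 and 129 CPM in the Ly49I+ libraries and 119.9, 141.1 and 154.2 CPM in Ly49G+ (0.15 ± 0.15). It was also the highest eIF3 gene per length, at 170.7 CPM per kb, followed by Eif3h at 156.1 and Eif3a at 141.3, while Eif3d at 26.63 and the loosely bound subunit gene Eif3j1 at 14.8 were lowest. The subunits of this one complex thus spanned a wide range of RNA per length. Eif3j1 shares 36% of its windows with Eif3j2, and 43.3% of the exon bases of Eif3d lie opposite Gm17638.

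Among the genes of the Eif1 and Eif2 groups and of Eif5 with Eif6, Eif2s2, Eif1ax, Eif5 and Eif5b had the smallest p-values, all with Ly49G+ higher. Eif2s2, the beta subunit of eIF2, stood at 104.4, 106.4 and 103.1 CPM in Ly49G+ and at 85.7, 89.26 and 81.15 CPM in Ly49I+ libraries. The Ly49G+ libraries lay within 1.03-fold of each other and above all others. The difference was 0.29 ± 0.07, which missed the threshold (limma adjusted p = 0.0539) and passed with the block (0.0179). Of its windows 18.8% also occur in Gm9892. Eif2s1, the alpha subunit that stress kinases phosphorylate, stood at 86.25, 78.94 and 69.26 against 71.32, 65.49 and 64.2 CPM (0.22 ± 0.10, limma adjusted p = 0.243), with a slight overlap. Eif2s3x, the X-linked gamma subunit, stood at 76.13, 80.77 and 78.51 against 75.13, 79.31 and 73.74 CPM (0.05 ± 0.07), with overlapping groups and 35.3% of its windows shared with Gm2223.

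Eif5 encodes the factor that makes eIF2 hydrolyse its GTP at the start codon, and stood at 521.9, 613.9 and 495.7 CPM against 460, 445.3 and 379.2. Eif5b, the GTPase that joins the ribosomal subunits, stood at 247.7, 267.1 and 239.4 CPM against 232.2, 204.9 and 167.3. In both, replicate 2 was the highest Ly49G+ library, replicate 3 the lowest Ly49I+ library, and the groups did not overlap. Their differences were 0.34 ± 0.10 (limma adjusted p = 0.0962, and 0.00643 with the block) and 0.33 ± 0.11 (0.137, and 0.0175 with the block). Of the exon bases of Eif5b 16.8% lie opposite Rev1.

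Eif1ax, an X-linked gene for eIF1A, stood at 37.95, 33.83 and 38.95 CPM in Ly49G+ and at 28.99, 29.81 and 29.14 CPM in Ly49I+ libraries (0.33 ± 0.09, limma adjusted p = 0.085, and 0.0411 with the block). The Ly49I+ libraries were nearly level and all lower. Its autosomal paralogue Eif1a stood at 52.98, 47.42 and 47.04 against 50.47, 39.42 and 43.34 CPM (0.15 ± 0.11), with overlapping groups. Eif1, which guards start codon choice, stood at 132.6, 158.8 and 132.7 against 122.2, 143.2 and 134.2 CPM (0.08 ± 0.09), and Eif1b differed by 0.00 ± 0.10. Eif1ad, which bears an eIF1A-like domain, was the one Eif1 gene higher in every Ly49I+ library, at 37.11, 37.81 and 35.52 against 38.52, 38.61 and 44.06 CPM (-0.13 ± 0.09, limma adjusted p = 0.431).

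Factors that deliver the initiator transfer RNA by other routes were also close. Eif2a, which works apart from eIF2, stood at 77.89, 72.61 and 70.41 against 63.49, 69.23 and 59.67 CPM, without overlap (0.20 ± 0.09, limma adjusted p = 0.233). Eif2d differed by -0.02 ± 0.12.

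The genes that regulate eIF2 showed no difference past the test. The 5 subunits of eIF2B, the exchange factor that recharges eIF2, had differences of -0.09 to 0.06 with a median of -0.04, and all overlapped between the groups. So did the 4 kinases that phosphorylate eIF2 alpha, with differences of -0.09 to 0.12: Eif2ak1 (HRI, the haem-regulated kinase), Eif2ak2 (PKR, which senses double-stranded RNA), Eif2ak3 (PERK of the endoplasmic reticulum) and Eif2ak4 (GCN2, which senses uncharged transfer RNA). Their levels ran from 32.1 CPM in Ly49G+ for Eif2ak4 to 100.9 CPM in Ly49I+ for Eif2ak1. Per length Eif2ak1 (23.06 CPM per kb) and Eif2ak2 (19.08) were above Eif2ak3 (9.835) and Eif2ak4 (6.345). Of 14 measured genes of the integrated stress response, the programme that follows eIF2 phosphorylation, none passed the test in limma, with or without the block, 1 had an unadjusted p under 0.05, and the median difference was 0.08.

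The eIF4 genes, which load capped messengers, held no called member with or without the block, and 1 of 14 had an unadjusted p under 0.05, which 19.8% of all genes reached. Their differences ran from -0.17 to 0.18 with a median of -0.02, equal to that of all genes. The helicase genes Eif4a1 and Eif4a2 had the smallest p-values among them. Eif4a1 stood at 257.3, 285.4 and 271.2 CPM against 230.7, 244.5 and 250.9 (0.16 ± 0.07, limma adjusted p = 0.244), without overlap, and 60.8% of its windows also occur in Eif4a-ps4 and Gm5513. Eif4a2 stood at 490.9, 487.2 and 430.1 against 443.3, 412.2 and 390.9 CPM (0.18 ± 0.08, limma adjusted p = 0.259), with overlap. Eif4a3, the helicase of the exon junction complex, differed by -0.01 ± 0.10.

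For the cap-binding genes the groups overlapped. Eif4e, the cap-binding subunit, stood at 79.55, 78.83 and 82.9 against 67.07, 80.5 and 70.48 CPM (0.15 ± 0.09). Eif4e2, a cap-binding protein that can repress translation, stood at 149.9, 156.2 and 176.2 against 158.3, 147.1 and 143.6 CPM (0.10 ± 0.08). Eif4e3 was lower, at 35.54, 35.46 and 46.77 against 43.17, 47.96 and 40.86 CPM (-0.17 ± 0.12). The level of Eif4e per length depends on the transcript chosen, at 15.34 CPM per kb with the principal transcript and 96.6 with the median annotated length, so it cannot be ordered against the others.

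The scaffold genes were abundant and close to equal. Eif4g1 stood at 480.7, 477.2 and 487.3 against 462.8, 471.4 and 533.7 CPM (-0.02 ± 0.08). Eif4g2, which lacks the eIF4E-binding site of its relatives and serves initiation without eIF4E, stood at 1106, 1225 and 1166 against 1147, 1140 and 1006 CPM (0.09 ± 0.08). Eif4g3 stood at 360.4, 348.7 and 376.3 against 378.2, 402.5 and 384.3 CPM, higher in every Ly49I+ library (-0.10 ± 0.07, limma adjusted p = 0.414). The helicase cofactors Eif4b and Eif4h differed by 0.06 ± 0.08 and -0.15 ± 0.10, and the repressors Eif4ebp2, Eif4ebp3 and Eif4enif1 by -0.05, -0.04 and -0.04. Eif4ebp3 shares 62.8% of its windows with the overlapping gene AC115631.1.

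Eif5a, whose product carries the modified amino acid hypusine and helps ribosomes through stalling sequences, stood at 219.4, 269 and 277.8 CPM in Ly49G+ and 215.7, 298.5 and 299.6 CPM in Ly49I+ libraries (-0.08 ± 0.13). Replicate 1 was the lowest of each group and the groups overlapped. Its paralogue Eif5a2 was the least abundant member per length, at 3.576 CPM per kb against 183.3 for Eif5a. Eif6, which keeps free large subunits from joining, differed by 0.02 ± 0.13.

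**Figure D3:**
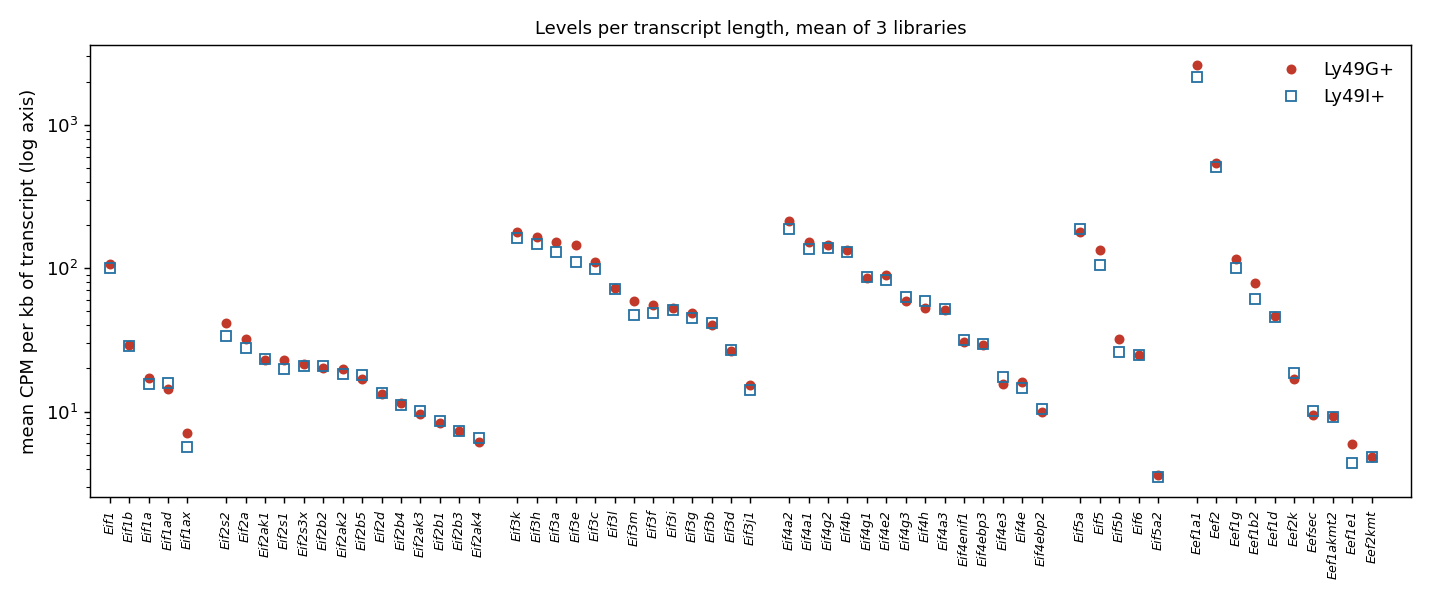
Mean CPM per kilobase of the principal transcript is shown on a log axis for each member, with filled points for Ly49G+ and open squares for Ly49I+. The levels span from 2384 for Eef1a1 to 3.576 for Eif5a2 as means over all libraries, while the points of the 2 populations nearly coincide.

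Whether the populations use different paralogues was compared as the log2 ratio of both genes within each library for 8 pairs, with an exact two-sided permutation test over libraries, which cannot go below 0.1 with 3 against 3. The lowest p was that of Eif4e over Eif4e3, whose log2 ratio was 1.16, 1.15 and 0.83 in Ly49G+ and 0.64, 0.75 and 0.79 in Ly49I+ libraries. Every Ly49G+ library was higher, by 0.32 on average (exact permutation p = 0.1, and 0.8 adjusted over the 8 pairs). The ratio of Eif4a1 to Eif4a2 was -0.93, -0.77 and -0.67 in Ly49G+ and -0.94, -0.75 and -0.64 in Ly49I+ libraries, a difference of -0.01. The groups overlapped throughout. The ratio of Eif1a to Eif1ax was lower in Ly49G+ by 0.18, at 0.41 ± 0.12 against 0.59 ± 0.20 (SD, n = 3 each, exact permutation p = 0.3), and overlapped. The other 5 pairs, Eif1 over Eif1b, Eif4g1 over Eif4g2, Eif4g1 over Eif4g3, Eif4e over Eif4e2 and Eif5a over Eif5a2, differed by -0.12 to 0.08, with exact permutation p-values of 0.4 to 0.8.

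**Figure D4:**
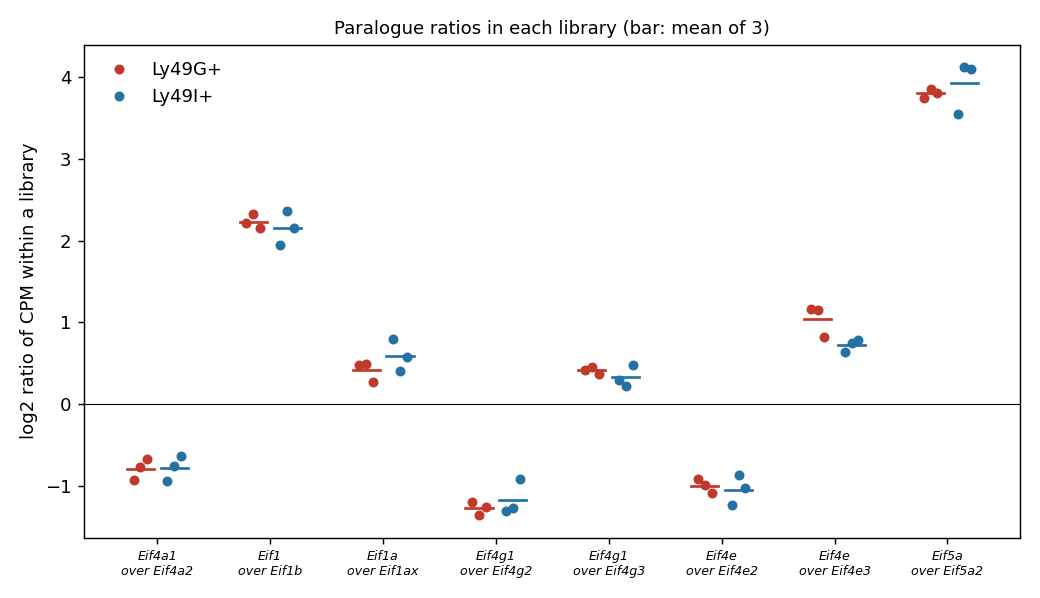
The log2 ratio of CPM of each paralogue pair is plotted for each library, with the group mean as a bar. The groups overlap in all pairs but Eif4e over Eif4e3, where the means are 1.05 in Ly49G+ and 0.72 in Ly49I+.

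The rest of the translation pathway was described from 8 lists. The list of termination, recycling and rescue also holds the member Eif4e2, and Sesn2 stands in both the mTORC1 and the stress response list. Of 19 partners of cap-dependent initiation 1 was called higher in each direction (10.5% together, against 3.59% of all genes) and 17 did not pass. Paip2b, which represses translation by binding the poly(A)-binding protein, was higher in Ly49G+, at 55.95 ± 2.69 against 42.75 ± 1.41 CPM (SD, n = 3 each, log2 difference 0.39 ± 0.08, limma adjusted p = 0.027). Cyfip1, which binds eIF4E and also belongs to an actin regulator, was higher in Ly49I+, at 66.35 ± 6.31 against 48.13 ± 1.57 CPM (-0.46 ± 0.09, limma adjusted p = 0.019). With the block 2 were called in each direction (21.1% together, against 11.7% of all genes). Mknk2, a kinase of eIF4E, then passed toward Ly49I+ (-0.33 ± 0.13, limma adjusted p = 0.206, and 0.00958 with the block), and Larp1, which binds TOP messengers, toward Ly49G+ (0.26 ± 0.08, 0.126, and 0.0302 with the block).

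In the other 7 lists no gene passed the limma test, which 3.59% of all genes did. They were 25 measured genes of mTORC1 and S6 kinase control, 14 of the integrated stress response, 8 of start codon choice and reinitiation, 12 of termination, recycling and rescue, 5 of hypusine and diphthamide synthesis, 21 aminoacyl-tRNA synthetases and their scaffolds, and 7 mitochondrial translation factors, with 3, 1, 4, 3, 0, 3 and 1 genes at an unadjusted p under 0.05, which 19.8% of all genes reached. Their median differences were -0.07, 0.08, 0.16, 0.06, 0.22, 0.07 and 0.08. Abce1, which splits the ribosome after termination and stands in 2 of these lists, was nearest the threshold, at 215.8 ± 8.14 against 169.2 ± 17.6 CPM (SD, n = 3 each, 0.36 ± 0.09, limma adjusted p = 0.0521, and 0.00564 with the block). With the block, which called 11.7% of all genes, 0 genes of the stress response, hypusine and mitochondrial lists passed. In mTORC1 control 1 passed (4%, Tsc2, -0.25 ± 0.08), in start codon choice 2 (25%, Abce1 and Tpt1) and in termination 1 (8.33%, Abce1). Of the synthetase genes 2 passed (9.52%), Eprs toward Ly49G+ (0.22 ± 0.07) and Wars toward Ly49I+ (-0.34 ± 0.10).

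The cytosolic ribosomal protein genes, which work beside these factors, had a larger share of called genes. Of 74 measured, 10 (13.5%, against 3.59% of all genes) were called, all higher in Ly49G+. A positive difference was found in 72 (46.5% of all genes had one), and the median was 0.22. The corresponding values were 2 of 61, 37 of 61 and 0.05 for the translation factors. With the block 36 ribosomal protein genes (48.6%, against 11.7% of all genes) and 9 translation factor genes were called. The difference between these sets was not tested.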

How the data were processed

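The submitters' processing notes name CASAVA 1.8.2, STAR 2.3.0, limma and the build mm10. How reads were counted, and on which strand, was not stated in any source used here. The authors deposited log2 CPM. Solving voom's formula (0.5 added to a count, 1 to the total) returned whole reads for 100% of values to within 0.001 read. The second-highest CPM of a gene was never below 10. The members and all lists were chosen with earlier results of these data known. Genes were matched by number to RefSeq (GRCm38.p6), which named 8429 of 8520.

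limma 3.58.1 in R 4.3.3 was run on the deposited log2 values of all genes, with an intensity trend and no block, and tested on simulated data. CPM in the text is reads divided by the library total. Levels per kb use the APPRIS principal transcript of GENCODE, the longest where several qualify. Shared windows were 100 bases long. Same-numbered libraries had positively correlated deviations from their group means over genes (0.371, 0.114 and 0.156). Ly49G+ replicate 3 with Ly49I+ replicate 2 reached 0.359, so pairing by number is an assumption. The replicate block rests on it and is printed where it changes a call. Replicates differed by more than sampling noise (chi-square per degree of freedom 25.2 to 81.2). Named are all members called, the 2 with the smallest p, the 2 with the largest difference and the highest per length in each group, all paralogue pairs, and up to 4 called genes of each other list. Members, markers and list genes beyond that rule were described after their values were seen, to account for all 61. Python 3.11.15, numpy 2.4.6, pandas 2.3.3, scipy 1.17.1 and matplotlib 3.10.9 were used. Alternatives were no trend, a robust prior, the block, median-ratio scaling, quantile normalization, voom weights, a pseudocount of 2 reads, only genes with a mean log2 CPM of at least 4, and leaving out each library.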

Additional observations from a re-analysis of the deposited data

How the results depend on the processing

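The direction of Eef1b2 and Eif3e was the same under every alternative run. The trend, the prior, the block and the filter on low means cannot change the difference of a gene, so for these the direction was fixed beforehand. The count of called members was 2 under the robust prior, both scalings, voom weights, the larger pseudocount and the filter on low means, 1 without the intensity trend, 9 with the replicate block, and 0 to 5 on leaving out 1 library. The Eif3 count was 0 without the trend. With the replicate block it was 3 (23.1%), and those of Eif1 and Eif2 were 1 each (20% and 7.14%). Those of Eif5 with Eif6 and of Eef were then 2 each (40% and 20%). Of the whole table the block called 993 genes (11.7%). The block also gave 4 called cap-dependent partners (21.1%), 1 mTORC1 gene (4%), 2 of start codon choice (25%), 1 of termination (8.33%) and 2 synthetases (9.52%). The robust prior gave 1 of start codon choice and 1 of termination, with 328 genes of the whole table called. Leaving out 1 library gave 0 to 2 for Eif3, 0 to 2 for Eif5 with Eif6, 0 to 1 for Eef, 0 to 3 for cap-dependent partners, 0 to 1 for mTORC1, start codon, termination and synthetase genes, and 94 to 644 for the whole table. The cause of these changes was not tested. Not every library correlated best with its own number, since Ly49G+ replicate 3 and Ly49I+ replicate 2 reached 0.359. The median of all genes was -0.02 as deposited, -0.01 with median-ratio scaling and 0.00386 with quantile normalization.

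The sign turned in these members, none of them called. Most lay near zero, but Eif3k had a difference of 0.15 and turned without Ly49I+ replicate 1. Leaving out 1 library gave log2 differences of -0.163 to 0.181 for Eef1akmt2, -0.016 to 0.044 for Eef1d, -0.074 to 0.052 for Eef2kmt, -0.003 to 0.138 for Eif1, -0.047 to 0.047 for Eif1b. The range was -0.114 to 0.029 for Eif2ak1, -0.158 to 0.042 for Eif2b1, -0.185 to 0.098 for Eif2b2, -0.175 to 0.115 for Eif2b3, -0.030 to 0.117 for Eif2b4. The range was -0.104 to 0.065 for Eif2d, -0.101 to 0.039 for Eif3b, -0.075 to 0.028 for Eif3d, -0.013 to 0.116 for Eif3i, -0.022 to 0.299 for Eif3k. The range was -0.018 to 0.089 for Eif3l, -0.097 to 0.057 for Eif4a3, -0.132 to 0.067 for Eif4ebp2, -0.103 to 0.019 for Eif4ebp3, -0.067 to 0.006 for Eif4enif1. The range was -0.058 to 0.045 for Eif4g1, -0.235 to 0.027 for Eif5a, -0.017 to 0.126 for Eif5a2, -0.110 to 0.097 for Eif6. With median-ratio scaling the sign also turned, to 0.004 for Eef1akmt2, 0.002 for Eef2kmt. With quantile normalization the sign also turned, to 0.021 for Eef1akmt2, 0.042 for Eef2kmt, 0.005 for Eif2b1, 0.025 for Eif2b3, 0.001 for Eif2d, 0.005 for Eif3d, 0.004 for Eif4ebp3.

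With 3 libraries a group the median member's 95% interval reached 0.209 to either side on the log2 scale, and the narrowest reached 0.151.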

Other observations

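The mean log2 CPM of 74 ribosomal protein genes was 7.49, 7.64 and 7.90 in Ly49I+ replicates 1, 2 and 3 and 7.85, 7.89 and 7.98 in Ly49G+. That of the 61 translation factors was 6.44, 6.51 and 6.49 against 6.53, 6.58 and 6.57. Ly49I+ replicate 3 thus overlapped the Ly49G+ range for ribosomal protein genes and lay below it for the mean of all 61 translation factors. By group it lay below for Eif1, Eif2, Eif3 and Eif5 with Eif6. For Eif4 it lay inside the Ly49G+ range (7.327, in 7.301 to 7.416), and for Eef it equalled Ly49G+ replicate 3 (6.601). Eef2 was highest in Ly49I+ replicate 3, at 1983 CPM. This was noticed after the values were seen, rests on Ly49I+ replicate 3, and was not tested.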
